A study of Mus musculus with 20 samples.

Results

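Tight junction genes were followed across 4 diets in the proximal colon (PC) of mice. The set was a fixed list of 10 genes given by name, and all 10 were found among the 12701 genes of the count table. They encode the pore-forming claudins Cldn2 and Cldn15, the claudins Cldn3, Cldn4, Cldn7, Cldn8 and Cldn23, the membrane protein occludin (Ocln), the junctional adhesion molecule JAM-A (F11r) and the scaffold protein ZO-1 (Tjp1).

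C57BL/6 mice, an inbred laboratory strain, about 3 weeks old were put on the TWD (Total Western Diet), which is formulated after what Americans eat, and ate it for 6 weeks. They were then kept for 3 weeks on the TWD with 0, 2, 5 or 10% raw potato starch, here called resistant potato starch (RPS), which largely escapes digestion in the small intestine. Each diet had 5 libraries, 1 per mouse. All 4 groups ate the TWD and there was no group on another base diet, so every comparison is of starch added to the same background.

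Tight junctions seal the space between neighbouring epithelial cells near the gut lumen and set which ions, water and solutes pass between cells. Claudins form the strands and give them their selectivity: Cldn2 and Cldn15 form channels for small cations and water, whereas other claudins mostly tighten the seal. Occludin and JAM-A lie beside the claudins in the membrane, and ZO-1 ties all of them to the actin cytoskeleton.

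The libraries held 20581013 to 35083751 counts. Library 2 of the 0% RPS diet stood apart, with a mean distance of 41.0 to the other libraries of its diet on the variance-stabilised scale against 20.2 to 29.2 in the other 19, so the calls of the 10 genes, and those of other genes at 5 and 10% RPS, are given below with and without it. It also held 2422 normalised counts of Hoxa9, a gene of distal position along the gut, against 257 to 524 in the other 4 libraries of its diet. The tissue was a whole wall segment, and all 12 epithelial markers, 8 of 8 smooth muscle markers and 6 of 6 fibroblast markers were detected. In such tissue, fewer cells of a type and less RNA per cell cannot be told apart.

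Promoter sequences are shown for Cldn2 and F11r, since both genes passed the test below and differ in the letters near their start sites. Each run is 300 bases, from 250 bases before to 50 after the start of transcription, taken from RefSeq on GRCm38.p6, the build used for all promoter windows here, whereas gene positions below are on GRCm39. The Cldn2 window is chrX:139800558-139800857 and the F11r window chr1:171437311-171437610, both on the plus strand. Capitals mark the letters TATAAA (the TATA box), CATAAA (bound by CDX factors, written on the other strand as TTTATG) and GGGCGG (the GC box, on the other strand CCGCCC).
Cldn2: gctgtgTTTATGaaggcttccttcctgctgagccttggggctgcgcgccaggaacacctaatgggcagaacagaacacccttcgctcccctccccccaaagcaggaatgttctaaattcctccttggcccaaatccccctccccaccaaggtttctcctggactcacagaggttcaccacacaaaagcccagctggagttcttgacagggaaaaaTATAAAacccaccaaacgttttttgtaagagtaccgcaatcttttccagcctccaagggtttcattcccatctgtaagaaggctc
F11r: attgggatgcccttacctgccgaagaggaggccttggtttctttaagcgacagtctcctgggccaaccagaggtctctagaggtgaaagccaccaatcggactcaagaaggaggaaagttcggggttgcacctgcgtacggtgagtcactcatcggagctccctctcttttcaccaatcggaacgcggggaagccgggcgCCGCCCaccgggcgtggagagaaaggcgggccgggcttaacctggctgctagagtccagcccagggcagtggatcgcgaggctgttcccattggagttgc
The Cldn2 window held TATAAA starting 35 bases before the start site and TTTATG starting 244 bases before it. The F11r window held CCGCCC starting 50 bases before its start site and neither of the other motifs. The letters were searched on both strands with AGGTCA (a nuclear receptor half-site) and CAAAGT (part of the HNF4A motif), and no 2 of the motifs can cover the same letters on 1 strand in full. Of 27025 promoters in the RefSeq table, taken as 1 per gene, 14.2% held TATAAA, 12.1% CATAAA, 16.04% AGGTCA, 35.9% GGGCGG and 14.3% CAAAGT. Entries were found for 8 of the 10 genes (10 windows, since Cldn7 and Ocln had more than 1), and not for Cldn8 and Cldn23. TATAAA and CATAAA were found in 1 window each, that of Cldn2, GGGCGG in 8, AGGTCA in 5 and CAAAGT in 0. These counts are by window, unlike the shares per gene above. Both Cldn7 windows held AGGTCA, and both Ocln windows, which overlap, held GGGCGG. The Cldn2 window was also the poorest in CpG, with 5 against up to 31 in the other windows and 19 for F11r.

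Levels between genes were compared as RPKM, here counts scaled by the length of the annotated exons and by the total of the library. Cldn3 (361 ± 45.8 RPKM, SD, n = 20) and Cldn7 (mean 349, from 309 to 379) stood far above the other 8 genes, and between them the order was not stable, with Cldn3 higher in 12 of 20 libraries. A middle tier held Cldn15 (90.2 ± 9.11 RPKM), F11r (85.4 ± 6.52) and Cldn2 (77.8 ± 21.9), whose spreads overlapped. Cldn4 (26.6 ± 8.04 RPKM) and Cldn23 (24.9 ± 4.55) were level with each other, since Cldn4 was the higher in 10 of 20 libraries. Cldn8 (13.7 ± 4.06 RPKM), Tjp1 (13.3 ± 1.51) and Ocln (10.6 ± 1.36) were lowest. Every library put Cldn7 above Cldn15, Cldn2 above Cldn4 and Cldn23 above Cldn8. The table held 9 of the 36 claudin genes in the annotation, and the other 2, Cldn12 (5.92 RPKM) and Cldn5 (4.67 RPKM), a claudin of blood vessel endothelium, lay below all 10 genes.

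The genes also differed in how far mice of the same diet varied. On the variance-stabilised scale, the within-diet SD of Cldn8, Cldn4 and Cldn2 lay at percentiles 98.0, 97.5 and 97.2 of all genes, whereas that of Cldn7 lay at percentile 15.7. Between the highest and the lowest library, normalised counts differed 4.58-fold for Cldn2, 2.89-fold for Cldn8 and 2.82-fold for Cldn4, against 1.27-fold for Cldn7.

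**Figure D1:**
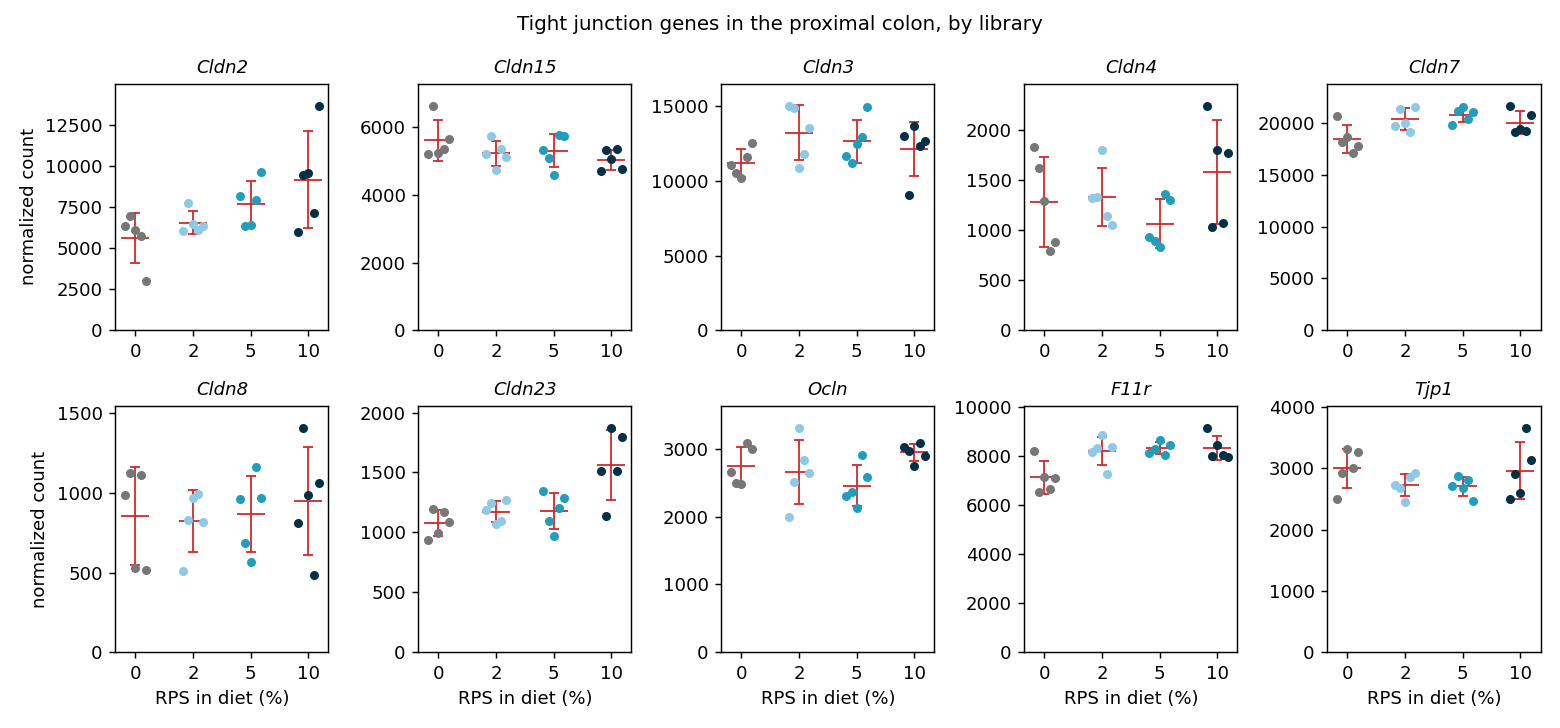
Normalised counts (y axes from 0, own scale per gene) of the 10 tight junction genes in 20 libraries, by percent RPS in the diet; points are libraries, red bars the mean and SD of 5. Cldn2 and Cldn23 reach their highest values at 10% RPS, where 4 of 5 libraries of each lie above every 0% RPS library, while Cldn4 and Cldn8 scatter widely in every diet.

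To ask which tight junction genes responded to starch, each starch diet was compared with 0% RPS by DESeq2 over all genes of the table. At 10% RPS, 1 of 10 genes, Cldn2, was higher with both an adjusted p up to 0.05 and a change of at least 1.5-fold, a rule that 0.9% of all tested genes met in either direction and 0.525% met upwards. At any fold, 3 of 10 passed, Cldn2, Cldn23 and F11r, all upwards, against 4.6% of all genes in either direction and 2.71% upwards. By edgeR at any fold, 1 of 10 passed, Cldn23, against 0.987% of all genes (0.663% upwards). At an unadjusted p under 0.05, 4 of 10 were reached, with Cldn7 added to these, beside 18.8% of all genes by DESeq2 and 18% by edgeR. Cldn2 and Cldn23 are on the study's own lists of genes altered in these samples, so their direction here is not independent evidence. At 5% RPS, 0 of 10 met the rule with the fold (0.438% of all genes, 0.334% upwards) and 1 of 10, F11r, passed at any fold (1.9% of all genes, 1.33% upwards). By edgeR, 0 of 10 passed at 5% RPS, where 0.0566% of all genes met the rule with the fold and 0.089% passed at any fold, all upwards. At an unadjusted p under 0.05 there were 3 at 5% RPS, Cldn2, Cldn7 and F11r, beside 16.6% of all genes by DESeq2 and 15.9% by edgeR. At 2% RPS, 0 of 10 passed by DESeq2, where 0.0239% of all genes did, and 0 by edgeR. At an unadjusted p under 0.05, 3 of the 10 stood out at 2% RPS (Cldn3, Cldn7 and F11r), beside 8.7% of all genes by DESeq2 and 8.09% by edgeR. The median log2 fold change of the 10 genes was 0.09 at 2%, 0.08 at 5% and 0.14 at 10% RPS, while the median of all genes lay within 0.01 of 0 in each comparison. The 3 comparisons share the same 0% RPS libraries, so their values are not independent of each other.

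**Figure D2:**
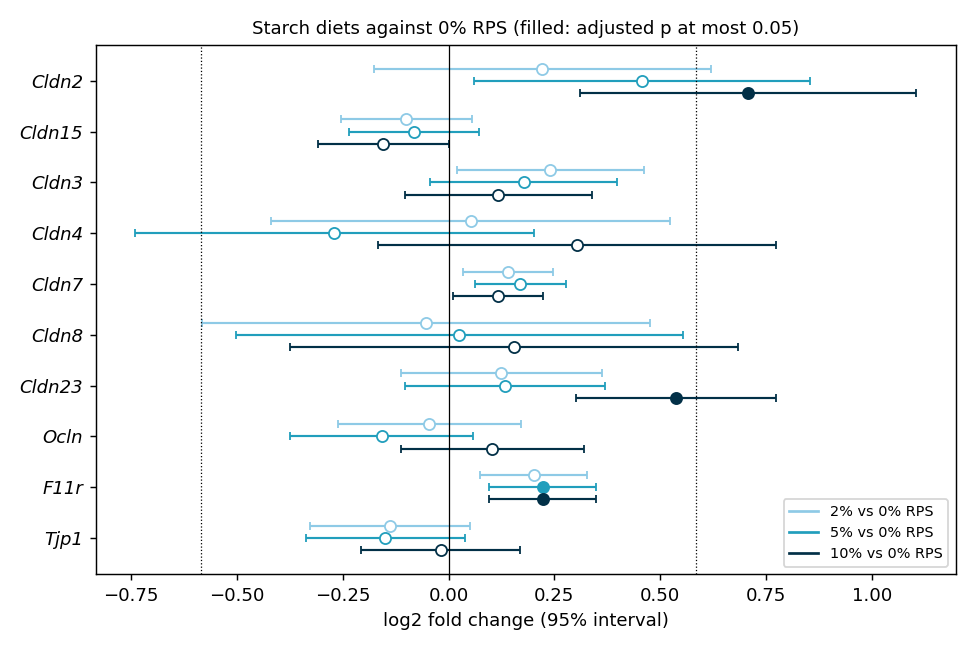
Log2 fold change with its 95% interval (x axis) of each gene (y axis) at 2, 5 and 10% RPS against 0% RPS; filled points have a DESeq2 adjusted p of 0.05 or less and dotted lines mark a 1.5-fold change. The 10% RPS point of Cldn2 alone passes the dotted line, and the intervals of Cldn4 and Cldn8 are the widest.

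Cldn2 encodes a channel-forming claudin that lets sodium and water pass between cells. Its gene lies at chrX:138701480-138712135 on the plus strand (GRCm39). At 0% RPS its normalised counts were 6319, 6937, 6064, 5726 and 2977. At 10% RPS they were 5990, 9439, 9560, 7149 and 13626. Thus 4 of 5 libraries at 10% RPS exceeded the highest 0% RPS library, and the remaining one lay inside the 0% RPS range. At 2% RPS the counts were 6052, 7716, 6469, 6087 and 6358. At 5% RPS they were 8142, 6351, 6424, 7930 and 9627. All 15 starch libraries were above the 0% RPS mean of 5605 ± 1534 (SD, n = 5), and the diet means were 6536 ± 683, 7695 ± 1361 and 9153 ± 2927 at 2, 5 and 10%. The low library 5 (2977) pulls that 0% RPS mean down. Against the 0% RPS median of 6064, library 1 at 2% (6052) and library 1 at 10% (5990) lay below. The share of all genes with such a count was not computed, here or for the genes below. The log2 fold change at 10% RPS was 0.71 ± 0.20 (SE), a fold of 1.63 (95% interval on the log2 scale 0.31 to 1.11), with adjusted p = 0.0208 by DESeq2 and 0.0896 by edgeR. At 5% RPS the log2 fold change was 0.46 ± 0.20 (DESeq2 adjusted p = 0.227) and at 2% it was 0.22 ± 0.20 (adjusted p = 0.781). Over all 4 diets the slope was 0.069 ± 0.018 log2 units per percent RPS, with adjusted p = 0.0120 by DESeq2 and 0.0650 by edgeR.

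The call of Cldn2 depended on single mice at both ends. It passed in 6 of 10 fits at 10% RPS that each left out 1 library of the compared diets, and was lost without 0% RPS library 4 (DESeq2 adjusted p = 0.0522), 0% RPS library 5, which had the lowest Cldn2 count (0.0767), 10% RPS library 3 (0.0747) or 10% RPS library 5, which had the highest (log2 fold change 0.52, adjusted p = 0.153). Without 0% RPS library 2, the one that stood apart, the log2 fold change of Cldn2 was 0.80 (DESeq2 adjusted p = 0.00580) and its slope 0.074 per percent (adjusted p = 0.00508). The slope of Cldn2 passed in 19 of 20 such fits, the exception being the one without 10% RPS library 5 (0.052 per percent, DESeq2 adjusted p = 0.121).

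Cldn23 encodes a claudin of differentiated surface colonocytes. Its gene lies at chr8:36291866-36293713 on the minus strand (GRCm39). At 0% RPS its normalised counts were 938, 1194, 994, 1169 and 1085. At 10% RPS they were 1512, 1133, 1870, 1510 and 1796. Again 4 of 5 libraries at 10% RPS lay above every 0% RPS library, and library 2 lay within their range. At 2% RPS the counts were 1188, 1245, 1067, 1094 and 1273. At 5% RPS they were 1346, 1097, 967, 1207 and 1288. The lower starch diets overlapped the 0% RPS diet broadly. Cldn23 thus stood at 1076 ± 110 (SD, n = 5) on 0% RPS, at 1173 ± 90.3 and 1181 ± 152 on 2 and 5%, and at 1564 ± 291 on 10%. The log2 fold change at 10% RPS was 0.54 ± 0.12 (SE), a fold of 1.45 with a 95% interval of 0.30 to 0.77 on the log2 scale, and adjusted p = 0.00141 by DESeq2 and 0.0314 by edgeR. By p, Cldn23 ranked 69 of 12561 genes tested, Cldn2 292 and F11r 304. The slope was 0.052 ± 0.011 log2 units per percent RPS (adjusted p = 0.00130 by DESeq2 and 0.0247 by edgeR). Cldn23 passed at any fold in 10 of 10 fits at 10% RPS that left out 1 library of the compared diets (largest adjusted p 0.0184), and its slope in 20 of 20. Without 10% RPS library 2 its log2 fold change was 0.63, past the 1.5-fold limit, and without 0% RPS library 2 it was 0.58 (DESeq2 adjusted p = 0.000671), with a slope of 0.055 per percent (adjusted p = 0.000525).

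F11r encodes JAM-A, an immunoglobulin-like adhesion protein that helps place the junction and is also found on platelets and leukocytes. Its gene lies at chr1:171265092-171292958 on the plus strand (GRCm39). At 0% RPS its normalised counts were 8221, 6541, 7130, 6652 and 7128. At 2% RPS they were 8184, 8324, 8851, 7285 and 8366. At 5% RPS they were 8147, 8278, 8649, 8064 and 8471, and at 10% RPS 9146, 8007, 8441, 8039 and 7979. All 15 starch libraries lay above the 0% RPS mean of 7134 ± 664 (SD, n = 5), but 0% RPS library 1 lay among them, so the groups overlapped. The starch diets were level with each other, at 8202 ± 571, 8322 ± 239 and 8322 ± 497. The log2 fold change of F11r was 0.20 ± 0.06 (SE) at 2% (DESeq2 adjusted p = 0.343), 0.22 ± 0.06 at 5% (0.0394) and 0.22 ± 0.06 at 10% (0.0217), a fold of 1.17 at both 5 and 10%. By edgeR the adjusted p was 0.138 at 5% and 0.0901 at 10%. The slope over percent RPS did not pass (0.017 per percent, DESeq2 adjusted p = 0.140). The call at 10% RPS held in 6 of 10 fits that left out 1 library of the compared diets and was lost without 0% RPS library 4 (DESeq2 adjusted p = 0.0946), 0% RPS library 5 (0.0697), 10% RPS library 1 (0.0678) or 10% RPS library 3 (0.0790), and it held without 0% RPS library 2 (0.19, adjusted p = 0.0452). The call of F11r at 5% RPS held in 3 of 10 and was lost without 0% RPS library 2 (log2 fold change 0.19, adjusted p = 0.0648). At 2% RPS, F11r passed at any fold in 2 of 10 such fits (smallest DESeq2 adjusted p 0.00659).

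**Figure D3:**
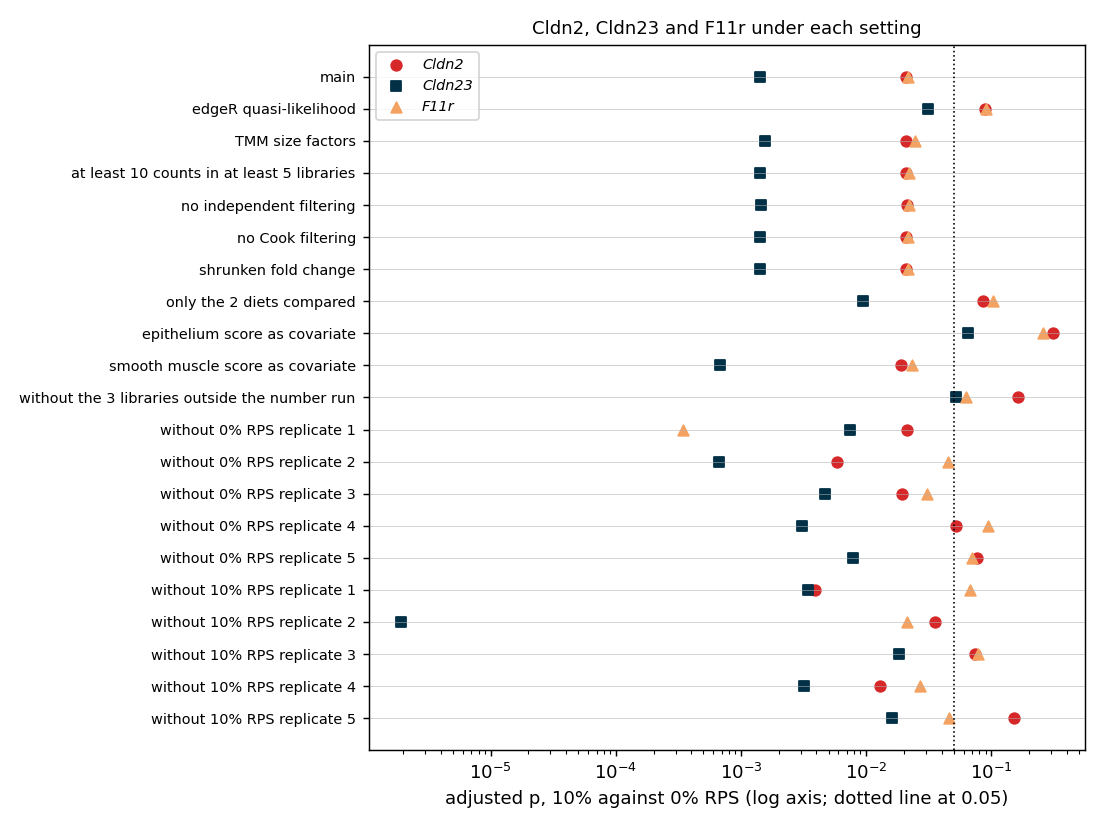
Adjusted p (x axis, log scale, dotted line at 0.05) of Cldn2, Cldn23 and F11r at 10% against 0% RPS in the main DESeq2 fit and under each other setting (y axis). Cldn23 lies left of the line in all but 2 settings, with the epithelial score as a covariate and without 3 libraries, whereas Cldn2 and F11r cross it in several.

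Some epithelial markers were also higher on the starch diets. Over the 12 markers, the mean log2 normalised count was 14.58 on 0% RPS (14.46 to 14.70 in 5 libraries) and 14.73 on each starch diet (14.57 to 14.91 at 10%), so the diets overlapped and the 3 starch diets were at the same mean. Their summed normalised counts ranged from 409717 to 500646 on 0% RPS and from 438382 to 549938 on 10%. At 10% RPS, 10 of 12 markers had a positive log2 fold change, with a median of 0.12, and 2 of 12 passed, Epcam (0.19 ± 0.05, DESeq2 adjusted p = 0.00666) and the differentiation keratin Krt20 (0.47 ± 0.13, adjusted p = 0.0193). Epcam and Krt20 also passed by DESeq2 without 0% RPS library 2 (adjusted p = 0.0138 and 0.0150), Epcam in 10 of 10 fits that left out 1 library and Krt20 in 5 of 10. At 5% RPS, 1 of 12 markers passed, Krt20 (0.45 ± 0.13, DESeq2 adjusted p = 0.0476), and 0 by edgeR. Beside this, 1.33% of all genes passed upwards by DESeq2 at any fold (1.9% in either direction). Krt20 at 5% also passed without 0% RPS library 2 (DESeq2 adjusted p = 0.0355), and in 4 of 10 such fits. With the epithelial score as a covariate, the log2 fold change at 10% RPS was 0.52 for Cldn2 (DESeq2 adjusted p = 0.311), 0.45 for Cldn23 (0.0649) and 0.19 for F11r (0.259), and none passed, while the slope of Cldn23 still did (0.047 per percent, adjusted p = 0.0169). With the smooth muscle score as a covariate, Cldn2 (0.71, DESeq2 adjusted p = 0.0189), Cldn23 (0.56, 0.000682) and F11r (0.22, 0.0232) passed.

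Cldn15, which like Cldn2 forms cation channels, lies at chr5:136995470-137004712 on the plus strand (GRCm39). Its mean normalised count was 5611 ± 595 (SD, n = 5) on 0% RPS and 5042 ± 300.3 on 10%, and 3 of 5 libraries at 10% lay below the lowest 0% RPS library. The log2 fold change at 10% RPS was -0.15 (95% interval -0.31 to 0.00012, DESeq2 adjusted p = 0.262), and at 2 and 5% it was -0.10 and -0.08. Cldn15 thus did not pass, although all 5 libraries at 10% RPS lay below the 0% RPS mean, and its interval excluded a 1.5-fold change in either direction. In RPKM, the number of Cldn2 per 100 Cldn15 was 63.6 ± 17.4 (SD, n = 5) on 0% RPS, 79.1 ± 6.49 on 2%, 91.6 ± 10.3 on 5% and 116 ± 40.4 on 10%. Within these ratios, the 0% RPS libraries ranged from 33.4 to 77.0 and the 10% RPS libraries from 80.4 to 181, so these 2 ranges did not overlap. The ratio was picked after its values were seen and is a description with no test. How many ratios of other gene pairs are free of overlap between these diets was not computed. None of the 10 genes alone was free of overlap between 10 and 0% RPS, where 1.35% of all genes lay wholly higher and 1.15% wholly lower. These shares are of single genes and give no background for a ratio.

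Among the other claudins that mostly tighten the junction, Cldn3 and Cldn7 were the most abundant. Cldn3 (chr5:135015068-135016326, plus strand, GRCm39) had 11189 ± 928 normalised counts on 0% RPS and 13215 ± 1836, 12652 ± 1444 and 12140 ± 1788 on 2, 5 and 10% (SD, n = 5), and its log2 fold changes of 0.24, 0.18 and 0.12 did not pass (DESeq2 adjusted p = 0.517, 0.426 and 0.591). Of the 50-base windows of its transcripts, 67.7% occur in Wbscr25, a gene on the opposite strand, and whether the counting used strand is not given in the sources used here, so its counts are uncertain. Cldn7 (chr11:69852648-69858711, plus strand, GRCm39), a claudin of basolateral membranes as well as junctions, was the steadiest of the 10. It had 18492 ± 1366 normalised counts on 0% RPS and 20387 ± 1063, 20801 ± 685 and 20053 ± 1108 on 2, 5 and 10%, with all 15 starch libraries above the 0% RPS mean. Its log2 fold changes were 0.14, 0.17 and 0.12 (95% interval at 10% RPS 0.01 to 0.22), and none passed (DESeq2 adjusted p = 0.450, 0.0680 and 0.211). Of the 10 fits per diet that left out 1 library of the compared diets, Cldn7 passed at any fold in 1 each. The DESeq2 adjusted p of these fits was 0.0206 at 2%, 0.00263 at 5% and 0.0325 at 10% RPS. Here 13.1% of windows were shared with Elp5 on the opposite strand.

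Cldn4 (chr5:134973973-134975788, minus strand, GRCm39), a claudin of surface cells that limits sodium passage, varied too widely for small changes to be detectable. Its normalised counts ran from 792 to 1824 on 0% RPS, from 831 to 1355 on 5% and from 1030 to 2234 on 10%. The log2 fold change of Cldn4 at 10% RPS was 0.30 (95% interval -0.17 to 0.77, DESeq2 adjusted p = 0.496), and at 5% it was -0.27 (-0.74 to 0.20). Cldn8 (chr16:88357716-88360071, minus strand, GRCm39), which limits cation leak in the distal nephron and colon, showed a similar spread, from 515 to 1125 normalised counts on 0% RPS and from 487 to 1408 on 10%. Its log2 fold change was 0.15 at 10% RPS (95% interval -0.37 to 0.68, DESeq2 adjusted p = 0.791). Both intervals leave room for a change past 1.5-fold upwards.

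Occludin and ZO-1, the junction proteins most often measured, did not pass in any comparison. Ocln (chr13:100630334-100689535, minus strand, GRCm39) had 2741 ± 282 normalised counts on 0% RPS, 2656 ± 478 on 2%, 2456 ± 298 on 5% and 2945 ± 131 on 10% (SD, n = 5). Its log2 fold changes were -0.05, -0.16 and 0.10, with a 95% interval of -0.11 to 0.32 at 10% RPS (DESeq2 adjusted p = 0.638). Tjp1 (chr7:64945898-65177529, minus strand, GRCm39) had 3001 ± 323, 2726 ± 181, 2706 ± 158 and 2963 ± 463 normalised counts, and all 10 libraries at 2 and 5% RPS lay below the 0% RPS mean. Its log2 fold change at 10% RPS was -0.02, with a 95% interval of -0.21 to 0.17 (DESeq2 adjusted p = 0.936). For both genes these intervals exclude a 1.5-fold change.

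Between the starch diets, 0 of 10 genes passed by DESeq2 or edgeR. By DESeq2 the background was 0 genes for 5 against 2% RPS (2.86% at an unadjusted p under 0.05), 0.143% of all genes at any fold for 10 against 2% and 0.0159% for 10 against 5%. At an unadjusted p under 0.05 by DESeq2 there were 0 of the 10 for 5 against 2%, 2 for 10 against 2% (Cldn2 and Cldn23, beside 9% of all genes) and 3 for 10 against 5% (Cldn4, Cldn23 and Ocln, beside 4.11%). Cldn23 had a log2 fold change of 0.41 ± 0.12 (SE) for 10 against 2% (DESeq2 adjusted p = 0.137) and 0.40 ± 0.12 for 10 against 5% (adjusted p = 0.389). For Cldn2 the same differences were 0.49 ± 0.20 (DESeq2 adjusted p = 0.410) and 0.25 ± 0.20 (adjusted p = 1). At 10 against 5% RPS, Cldn4 had a log2 difference of 0.57 ± 0.24 and Ocln of 0.26 ± 0.11, both with a DESeq2 adjusted p of 1. In the trend over percent RPS, 2 of 10 passed by DESeq2, Cldn2 and Cldn23, against 4.29% of all genes (2.4% upwards), and 1 of 10 by edgeR, Cldn23, against 1.33%.

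The claudin transcripts were also viewed as a pool, with each claudin as a share of the summed RPKM of the 9 claudins. Cldn3 and Cldn7 made up 37.8% and 36.7% of the pool over all 20 libraries. The share of Cldn2 was 6.84% ± 1.81 (SD, n = 5) on 0% RPS, 7.19% ± 0.562 on 2%, 8.43% ± 1.02 on 5% and 10.0% ± 2.90 on 10%. The share of Cldn15 was 10.8% ± 1.08, 9.10% ± 0.515, 9.21% ± 0.620 and 8.81% ± 1.19 in the same order. Together the pore-forming pair held 17.7% ± 2.20 of the pool on 0% RPS and 18.8% ± 3.09 on 10%. Cldn23 held 2.45% ± 0.277 on 0% RPS and 3.17% ± 0.394 on 10%. Shares sum to the whole, so a higher share of 1 claudin lowers the others, and no test was made on them.

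**Figure D4:**
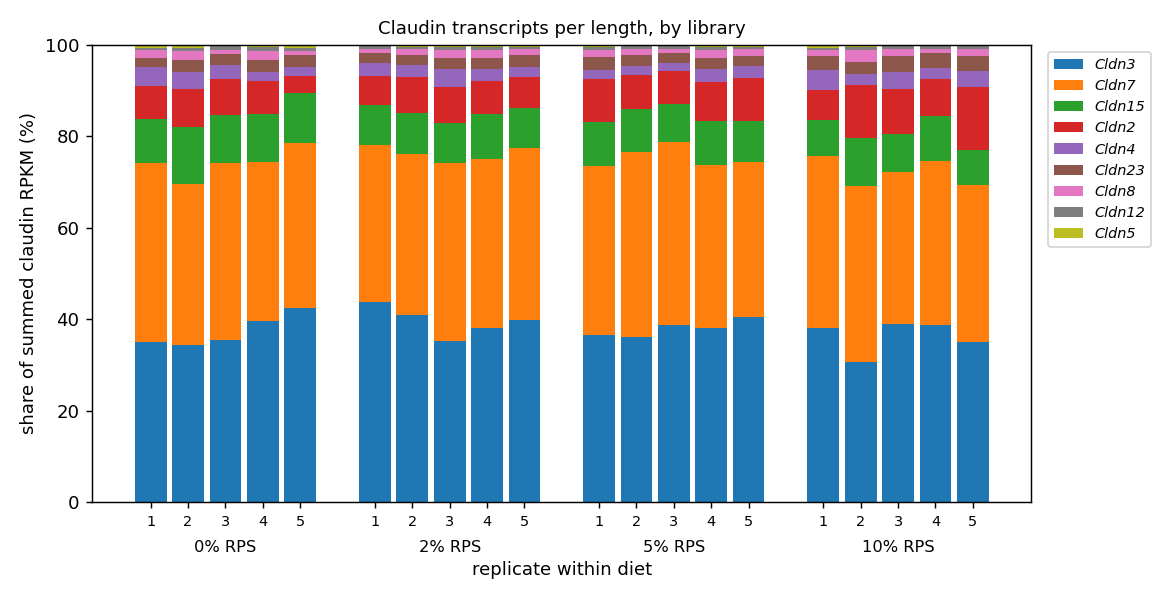
Share of each of 9 claudins in the summed claudin RPKM (y axis, percent) of each library (x axis, replicates 1 to 5 within each diet). Cldn3 and Cldn7 fill most of each bar, and the Cldn2 band ranges from 3.69% in a 0% RPS library to 13.8% in a 10% RPS library.

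To see which of the 10 genes varied together from mouse to mouse, deviations from the diet mean were correlated over the 20 libraries, which share library preparation, depth and cell make-up. Of 45 pairs, 25 had a positive Pearson r, and the median was 0.02, so the set did not move as 1 block. The highest r was 0.74 for Cldn7 with F11r, followed by 0.64 for Cldn3 with Cldn23 and 0.59 for Cldn2 with Cldn8. The lowest were -0.66 for Tjp1 with Cldn4 and -0.60 for Tjp1 with F11r. Against the epithelial score, r was 0.71 for Cldn7, 0.45 for Cldn3, 0.37 for Cldn2, 0.36 for Cldn4, 0.30 for Cldn23, 0.28 for F11r and -0.49 for Ocln. Against the surface colonocyte score, r was 0.58 for Cldn4, 0.43 for Cldn7, 0.35 for F11r, -0.36 for Tjp1, -0.41 for Ocln and 0.0062 for Cldn23. Against the goblet cell score it was 0.56 for Cldn23, 0.53 for Cldn3, 0.46 for Cldn2, 0.44 for Cldn15 and -0.43 for Ocln. Against a score of crypt or dividing cell markers it was 0.50 for Tjp1, 0.42 for Cldn23 and -0.48 for Cldn4. That score held the crypt genes Ascl2, Smoc2 and Axin2 and the dividing cell genes Mki67, Top2a and Pcna. The crypt base markers Lgr5 and Olfm4 were listed but are not among the 12701 genes of the count table, so their levels are not known here.

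**Figure D5:**
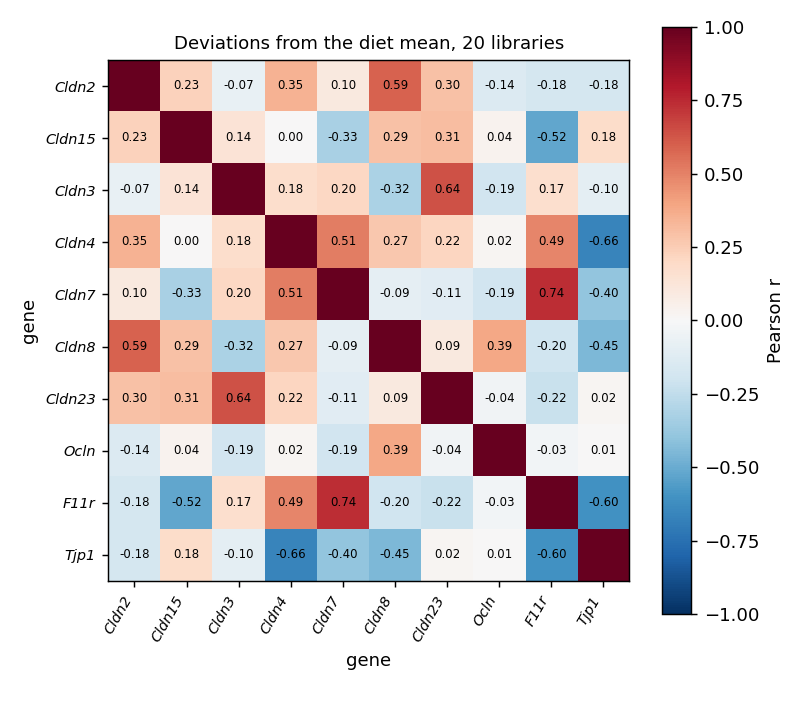
Pearson r between deviations from the diet mean of each pair of the 10 genes (both axes) over 20 libraries; red is positive and blue negative. Cldn7 with F11r (0.74) and Cldn3 with Cldn23 (0.64) are the strongest positive pairs, and the Tjp1 row is mostly negative.

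The genes nearest to each of the 3 that passed were sought among 11979 genes by the same correlation. For Cldn2 they were Hyou1, a chaperone of the endoplasmic reticulum (r = 0.86), Tgoln1, a protein of the trans-Golgi network (r = 0.86), and the non-coding RNA gene Snhg15 (r = 0.85). For Cldn23 they were Fbxl14, an F-box protein (r = 0.83), Trim8 (r = 0.77) and Asph (r = 0.74). For F11r they were Vps28, an endosomal sorting subunit (r = 0.89), the pentose phosphate enzyme Taldo1 (r = 0.86) and the mitochondrial ribosome gene Mrpl23 (r = 0.85). These are the highest of many correlations over 20 libraries and are given as a description.

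Other tight junction genes were read from a list of 37, of which 35 were in the table and Ildr2 and Magi2 were not analysed here. At 10% RPS, 2 of 35 passed upwards and 1 downwards at any fold, 0 at a fold of 1.5 and 0 by edgeR, with a median log2 fold change of 0.02. Of all genes, 2.71% passed upwards and 1.89% downwards by DESeq2 at any fold, and 0.9% met the rule with the fold. The 3 of the list that passed encode junctional adhesion molecules or their relatives, whereas Jam2 and Esam, of the same kind, did not pass. Igsf5 (JAM-4) had 826 ± 144 normalised counts on 0% RPS, 1101 ± 133 on 5% and 1032 ± 54.6 on 10% (SD, n = 5), and passed at 5% (log2 fold change 0.42, DESeq2 adjusted p = 0.0108) and 10% (0.32, adjusted p = 0.0439). Cxadr, the receptor of coxsackieviruses and adenoviruses, had 5533 ± 490 on 0% and 6507 ± 737 on 10% (0.23, DESeq2 adjusted p = 0.0476). Jam3 (JAM-C), which endothelium and fibroblasts also express, had 417 ± 41.0 on 0% and 305 ± 29.7 on 10% (log2 fold change -0.45, DESeq2 adjusted p = 0.0183). Without 0% RPS library 2, Igsf5 passed at 5% (DESeq2 adjusted p = 0.0220) but not at 10% (0.0818), Cxadr did not pass (0.0861) and Jam3 did (0.0230). Over all fits at 10% RPS that left out 1 library, Igsf5 passed in 3 of 10, Cxadr in 2 and Jam3 in 7. The most abundant of the 35 per kilobase were Mylk, the myosin light chain kinase gene that smooth muscle also uses (90.2 RPKM), Ybx3 (55.1) and Tjp3, which encodes ZO-3 (50.8), and none of these passed at 10% RPS (adjusted p = 0.577, 0.797 and 0.462). Cldn5 and Cldn12 did not pass either (log2 fold changes at 10% RPS of -0.35 and -0.0046).

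Of 15 genes of adherens junctions and desmosomes in the table, 14 had a positive log2 fold change at 10% RPS (median 0.10), and 1 passed, the desmosomal cadherin Dsg2 (0.27, DESeq2 adjusted p = 0.0421), which did not without 0% RPS library 2 (0.20, adjusted p = 0.0656). Of the marker lists of other cell types, goblet cell genes were positive in 7 of 7 (median 0.47, 0 passed), smooth muscle in 0 of 8 (median -0.25, 0 passed), fibroblast in 0 of 6 (median -0.28, 0 passed), and endothelium in 1 of 6 (median -0.16), of which Tek passed downwards (-0.38, DESeq2 adjusted p = 0.0180), also without 0% RPS library 2 (adjusted p = 0.0451). Tek passed in 7 of 10 fits that left out 1 library (largest DESeq2 adjusted p 0.0878). Surface colonocyte genes were positive in 4 of 6 (median 0.06, 0 passed) and crypt or dividing cell genes in 3 of 6. Of the latter, Smoc2 passed downwards (-0.42, DESeq2 adjusted p = 0.0208) but not without 0% RPS library 2 (adjusted p = 0.0529). Smoc2 passed in 4 of 10 fits that left out 1 library. Immune genes were positive in 1 of 3 and neuron and glia genes in 0 of 6, with 0 passed. Of 4 tested Hox genes that mark distal position along the gut, 0 were positive, and Hoxa9 passed downwards (-1.83, DESeq2 adjusted p = 0.0186). This rested on 0% RPS library 2, without which the log2 fold change of Hoxa9 was -0.70 (adjusted p = 0.0921). Hoxa9 passed in 6 of 10 fits that left out 1 library. The part of these cell make-up and position differences in the values of Cldn2, Cldn23 and F11r was not tested. The covariate fits above cannot measure it, since the scores themselves differed in mean between diets. On 0 and 10% RPS the epithelial score was 14.58 and 14.73, and the smooth muscle score 13.88 and 13.68.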

How the data were processed

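RNA was taken from a short segment of the PC of 20 C57BL/6 mice, 5 per diet, and sequenced as 50-base reads from stranded mRNA libraries. The deposited values are raw whole-number read counts per Ensembl gene, which the authors made with CLC Genomics Workbench (version 20.01 per the processing notes) on GRCm39. Replicates were not pooled. The annotation, the use of strand, the handling of multiply matching reads and the rule behind the 12701 genes are not given in the sources used here. Total counts per library were 20581013 to 35083751 (median 26354926), at which 3 counts stand at 0.0855 to 0.146 CPM, for counting error only.

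Libraries were grouped by the treatment in their labels and numbered in order within a diet. Gene symbols, coordinates and exon lengths came from GENCODE release M39, which matched 12682 of 12701 identifiers. DESeq2 (version 1.42.0, R version 4.3.3) was run on all 20 libraries with diet as the only term, default filters and Benjamini-Hochberg adjustment over all genes. The threshold for a changed gene was a fold of at least 1.5 with an adjusted p of at most 0.05, and calls at any fold were counted too. The trend used percent RPS as a number. edgeR (version 4.0.16, quasi-likelihood test, 12366 genes kept) was the second tool. Normalised counts were obtained with the size factors of DESeq2. Both tests were first checked on simulated counts. Python (version 3.11.15) made the figures.

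The 10 genes, the marker lists, the tests and the other settings were chosen with earlier results of these data known. All 10 genes were named. Of the other tight junction genes and claudins, those with an adjusted p of at most 0.05 against 0% RPS or in the trend and the 3 most abundant were named, and of each other list up to 3 that passed. For each of the 10 that passed, the 3 genes with the highest correlation were named among those with a mean of at least 50. Alternatives were edgeR, TMM factors, a filter of 10 counts in 5 libraries, independent or Cook filtering switched off, no fold limit or a limit of 2, a fit to only the 2 diets compared, fold changes after shrinkage, a covariate (epithelial or smooth muscle score), leaving out each library in turn, and leaving out 3 libraries with label numbers far from those of the remaining 17.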

Additional observations from a re-analysis of the deposited data

Results flagged for a closer look

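The Cldn2 count of 2% RPS library 2 was far from the other 4 of its diet, at 7716 normalised counts against 6052 to 6469. The gap to the nearest library was 0.749 of the whole range of the diet, above the critical value of 0.71 for 5 samples. Of 40 groups examined (10 genes in 4 diets), this was the only such case, and about 2 are met by chance. Without that library the log2 fold change of Cldn2 at 2% RPS was 0.16 (DESeq2 adjusted p = 0.975), and its call at 10% RPS was kept (adjusted p = 0.0245).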

How the results depend on the processing

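The number of the 10 genes changed at 10% RPS was 1 in the main DESeq2 fit. It was 0 with edgeR, a fold limit of 2, a fit to only the 2 diets compared, shrunken fold changes, the epithelial score as a covariate or omission of the 3 libraries outside the number run, and 3 without a fold limit, which also gave 1 at 5% RPS. When each library was left out in turn it ranged from 0 to 2. The number with a trend was 2, and 1 with edgeR, the epithelial score or omission of the 3 libraries, with a range of 1 to 2 over single libraries left out. Omission of the 3 libraries, 2 of them from the 10% RPS diet, left Cldn2 at a log2 fold change of 0.57 (DESeq2 adjusted p = 0.165), Cldn23 at 0.48 (0.0518) and F11r at 0.26 (0.0630). Fewer samples or a shared spread from fewer diets enter some of these fits, and otherwise the cause was not tested.

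Over all alternatives, 1134 of 1178 single-gene values kept direction and side of the threshold, 13 lost the call, 1 gained it and 30 changed sign. For the diet comparisons, a call in this tally needed the 1.5-fold limit, so lost calls of Cldn23 and F11r at any fold are not in it. Apart from single libraries left out, 10 settings gave an adjusted p for these genes. It stayed at 0.05 or less in 8 for Cldn23 at 10% RPS. For F11r it did so in 6 at 5% RPS and in 6 at 10%. The sign changes were of Cldn3, Cldn4, Cldn8, Ocln and Tjp1, none with a call (smallest adjusted p 0.409). With the epithelial score they were at 2% RPS Cldn4 (-0.089), Cldn8 (0.11) and Ocln (0.072), and Cldn3 at 10% (-0.0053) and in the trend (-0.0070). In the trend, Tjp1 turned to -0.0017 with the smooth muscle score and to -0.015 without the 3 libraries. Over the fits that each left out 1 library, values ran at 2% RPS from -0.080 to 0.22 (Cldn4), -0.19 to 0.079 (Cldn8) and -0.14 to 0.042 (Ocln), at 5% RPS from -0.11 to 0.15 (Cldn8), at 10% RPS from -0.030 to 0.32 (Cldn8) and -0.11 to 0.037 (Tjp1), and in the trend from -0.00033 to 0.034 (Cldn8) and -0.0082 to 0.0058 (Tjp1).

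No paired analysis was possible because no replicate number in the labels occurs in more than 1 diet. The setting of shrunken fold changes was not run for the trend. With 5 mice per diet, the 95% intervals of Cldn4 and Cldn8 at 10% RPS ran past a 1.5-fold change. Each of the 10 genes had 467 raw counts or more in every library. p values measure the spread between these mice.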
